A study of Saccharomyces cerevisiae with 24 samples.

Results

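RNA-seq in rich medium was compared between budding yeast carrying Sfp1-K655/657R and yeast carrying WT Sfp1, with attention to genes outside the ribosomal protein (RP) and ribosome biogenesis (RiBi) classes. The comparison holds 4 of the 24 libraries of the series, 2 replicates per strain, all grown in YPD with 2% glucose at exponential phase. The other libraries cover the same strains and K655/657Q in YPD, in 2% raffinose, and at 15 and 30 min after glucose was added back to raffinose cultures. In every strain SFP1 carries a C-terminal MYC tag with KanMX, so WT denotes tagged, unmutated Sfp1. For a background they call LPY, the labels list ade2-1, trp1-1, ura3-1 and can1-100 together with mutant alleles of HIS3 and LEU2, in both strains alike. The strain list of the study gives the MYC-tagged LPY strains another set of markers, with his3Δ200 and trp1Δ1 and without an ade2 allele. The 2 sources were not reconciled here. HIS3 and TRP1 were listed at 0 in all 4 libraries. Each strain stands for 1 construct, and no source says that the replicates came from separate cultures. The p values therefore rest on the spread between libraries of a group, estimated over the 23 libraries fitted and not over these 4 alone.

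Sfp1 is a zinc finger transcription factor that activates RP and RiBi genes when nutrients are plentiful, under the control of TORC1 and of the Ras and PKA pathway. The NuA4 complex acetylates it on the lysines replaced in K655/657R. Arginine keeps the positive charge of lysine but cannot be acetylated, and glutamine imitates the acetylated residue. Outside its main targets, Sfp1 is tied to cell size and to the balance between growth and stress programs. The changed codons are shown here in the reference sequence, since they are the only designed difference between the strains. SFP1 lies on chromosome XII, and the stretch below spans chrXII:927521-927547 of the R64 build on the forward strand, with the 2 lysine codons that the mutation replaces in capitals.

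SFP1 codons: ggctctgcaAAGgatAAAccataccgt

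Values below are TPM divided by a size factor per library (scaled TPM), which are corrected for transcript length. A fold change is the difference of the mean log2(scaled TPM + 1) between strains, fitted with limma over 23 libraries, and it understates changes of low genes. A gene is called, and said to have risen or fallen, at a Benjamini-Hochberg adjusted p under 0.05 over all 6357 tested genes together with a fold change of at least 1.5. SFP1 itself had 11.6 and 12.5 scaled TPM in WT and 10.9 and 10.7 in K655/657R (log2 fold change -0.14, adjusted p = 0.21), without overlap of the strains, and ACT1 had 2711 and 2647 against 2561 and 2803. The MATa genes MFA1, MFA2 and STE2 were at 11695, 10507 and 133 scaled TPM on average in WT, while the MATalpha genes MF(ALPHA)1, MF(ALPHA)2, STE3 and SAG1 ranged from 0.612 to 8.05. Between 6452 and 6476 transcripts were above 0 in these libraries, and their read depth is unknown.

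Of 5995 tested genes outside RP and RiBi, 69 rose in K655/657R (1.15%) and 34 fell (0.567%). With the adjusted p alone, 318 genes were higher (5.3%) and 323 were lower (5.39%), so most differences that passed were small. In all 103 called genes both libraries of one strain lay above both of the other. The calls came from these same libraries, so the separation adds no support to them. The share of separated genes among all tested genes was not counted. Rises were larger, with 14 genes at least 2-fold higher and 1 gene at least 2-fold lower. That gene, YOR293C-A, was low and variable, at 14.8 and 6.27 against 3.63 and 2.24 (-1.47, adjusted p = 0.0404), and without WT replicate 1 it was at -0.91 (adjusted p = 0.37), without K655/657R replicate 1 at an adjusted p of 0.084 and without K655/657R replicate 2 at 0.23. Some rises were also unstable, as YDL032W was at 0.80 without WT replicate 1 and YNL120C at 0.39 without WT replicate 2. The 14 rises of at least 2-fold include CUP1-1 and CUP1-2, which share 1 measurement, and their neighbours YHR052W-A and YHR054W-A. The median log2 fold change was 0.78 over called rises and -0.72 over called falls, against 0.00 over all tested genes. The balance of directions depended on the scaling, since TPM as deposited gave 51 rises among 95 calls, 53.7% in place of 67.0%. Within the 2 classes set aside, 1 RP gene (RPL18B, -0.65) and no RiBi gene was called. By the adjusted p alone 54 of 137 RP genes were lower and none was higher, with a median of -0.21, while the RiBi median was 0.01.

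**Figure D1:**
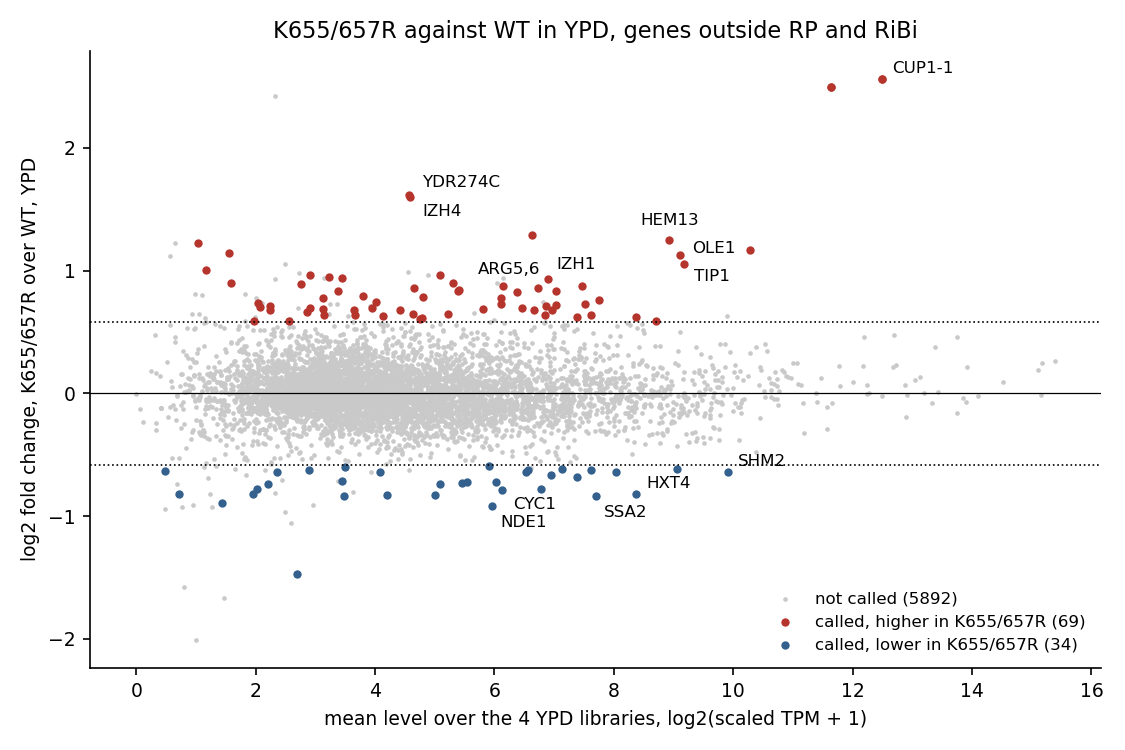
Mean level over the 4 YPD libraries (log2 of scaled TPM + 1) against the log2 fold change of K655/657R over WT, 1 point per gene outside RP and RiBi. Red and blue points are the 69 rises and 34 falls, dotted lines mark a 1.5-fold change, and CUP1-1, CUP1-2 and their 2 neighbours lie at the upper right with log2 fold changes of 2.56 and 2.49.

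Promoter stretches of members that carry the main groups are shown before their values. They were read from the R64 reference on the strand of the gene, 60 bases each, and capitals mark matches to a short motif on either strand. A match describes letters only. TTTGCTG is the core bound by Cup2, the copper-dependent activator, and 2 copies stand in this stretch of CUP1-1 at chrVIII:212945-213004, ending 225 bases before the start codon. ATTGTTC is the core bound by Rox1, the repressor of hypoxic genes, and 1 copy stands upstream of HEM13 at chrIV:546433-546492. ACTCAACA is the low-oxygen response element described for OLE1, shown at chrVII:398259-398318.

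CUP1-1: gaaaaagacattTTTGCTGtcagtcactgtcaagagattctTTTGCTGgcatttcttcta
HEM13: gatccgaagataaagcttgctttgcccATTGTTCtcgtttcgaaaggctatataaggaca
OLE1: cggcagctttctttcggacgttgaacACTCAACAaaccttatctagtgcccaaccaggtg

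TGACTC is the core that Gcn4, the activator of amino acid synthesis, and Bas1, an activator of purine and one-carbon genes, both recognise. It is shown for members that rose, ARG5,6 (chrV:295183-295242) and ARG4 (chrVIII:141549-141608), and for members that fell, SHM2 (chrXII:259771-259830) and GCV2 (chrXIII:637224-637283). In this stretch of SHM2 it appears as its reverse complement only, and in that of GCV2 in both orientations. The last stretch, from SSA2 (chrXII:97683-97742), holds a heat shock element, the kind of site bound by Hsf1, searched as TTC, GAA and TTC with 2 free bases between neighbouring triplets.

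ARG5,6: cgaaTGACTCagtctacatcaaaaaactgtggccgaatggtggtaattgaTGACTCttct
ARG4: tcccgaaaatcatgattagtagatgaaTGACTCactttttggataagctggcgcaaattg
SHM2: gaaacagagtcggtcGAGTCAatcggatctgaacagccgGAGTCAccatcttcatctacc
GCV2: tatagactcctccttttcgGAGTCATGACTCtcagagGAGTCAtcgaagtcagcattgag
SSA2: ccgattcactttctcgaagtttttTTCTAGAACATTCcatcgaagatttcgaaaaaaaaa

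The copper metallothionein genes rose more than any other called gene. CUP1-1 (YHR053C) and CUP1-2 (YHR055C) encode the same small cysteine-rich protein, which binds copper and protects cells from it, and their listed values were identical in every library, so they give 1 measurement split between copies. Each was listed at 2157 and 2595 scaled TPM in WT and at 15063 and 12978 in K655/657R. Both mutant libraries stood far above both WT libraries, and the ratio of means was 5.90. On the log2 scale the difference came to 2.56 (SE, or standard error, 0.22, adjusted p = 6.47e-06). K655/657Q lay below both, at 985 and 990, and K655/657R exceeded it by 3.82 on the log2 scale (adjusted p = 1.9e-09). Together the 2 copies took 0.365% and 0.443% of all TPM in WT and 2.47% and 2.08% in K655/657R. YHR052W-A and YHR054W-A, which neighbour the CUP1 genes by systematic name and are not in the reference used here, moved with them at 1206 and 1479 against 7985 and 7091 (log2 fold change 2.49). Whether reads of one strand were assigned to features of the other could not be told, since the strand setting of the quantification was not given in the sources used here.

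Other genes of copper handling did not pass the test. CUP2, the activator of CUP1, was at 21.6 and 21.5 in WT and 26.2 and 23.3 in K655/657R (log2 fold change 0.19, adjusted p = 0.17). The high-affinity copper transporters CTR1 (-0.22, adjusted p = 0.34) and CTR3 (0.06, adjusted p = 0.80), the metalloreductase FRE1 (0.04, adjusted p = 0.94) and the superoxide dismutase SOD1 (-0.11, adjusted p = 0.42) did not pass either. Of 20 tested genes of copper and zinc, 5 rose and none fell, with a median of 0.09. The members that rose beside CUP1 were IZH4, IZH1 and IZH2, membrane proteins of the PAQR family that influence zinc homeostasis.

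IZH4 (YOL101C) had 14.04 and 11.54 scaled TPM in WT and 38.3 and 42.9 in K655/657R, for a difference of 1.60 (adjusted p = 7.93e-04). IZH1 (YDR492W) had 87.1 and 84.0 against 161 and 167 (0.93, adjusted p = 7.49e-04). IZH2 (YOL002C) had 81.5 and 74.5 against 136 and 149 (0.86, adjusted p = 0.00265). In all 3 genes the strains did not overlap. K655/657Q averaged 4.48 in IZH4, under both other strains, while its means were 82.4 in IZH1 and 74.2 in IZH2, against 85.5 and 78.0 in WT. Among 34 genes of iron uptake, none was called, and the median was -0.01. The zinc transporters and the regulator ZAP1, also on the copper and zinc list, were among its 15 members without a call.

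HEM13 and OLE1, which encode enzymes that use oxygen, also rose. HEM13 encodes coproporphyrinogen III oxidase, an oxygen-requiring step of heme synthesis. It had 322 and 308 scaled TPM in WT and 760 and 743 in K655/657R, which made the log2 difference 1.25 (SE 0.15, adjusted p = 1.82e-04). OLE1 encodes the fatty acid desaturase, another oxygen-requiring enzyme. It had 376 and 366 against 790 and 829 (1.12, SE 0.12, adjusted p = 6.34e-05). Both genes were more than doubled in each mutant library relative to each WT library. In K655/657Q they were below WT, at averages of 130 for HEM13 and 201 for OLE1. No other gene of heme synthesis was called. HEM2 was lower by the adjusted p alone (-0.42, adjusted p = 0.00207), while HEM1 (-0.24), HEM12 (-0.14), HEM3 (-0.05), HEM15 (-0.02), HEM4 (0.07) and HEM14 (0.16) did not pass.

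On the list of fatty acid synthesis and lipid storage, 3 of 23 tested genes rose and none fell (median 0.12). Beside OLE1 these were MGA2, whose product is released from the ER membrane to activate OLE1, and FAA4, an acyl-CoA synthetase. MGA2 went from 9.25 and 8.44 to 14.9 and 14.7 (0.68, adjusted p = 3.57e-04), a change of 0.52 and under the fold threshold with a pseudocount of 5. FAA4 went from 92.4 and 87.0 to 155 and 140 (0.71, adjusted p = 0.00305). Fatty acid synthase and acetyl-CoA carboxylase genes were among the members without a call. Of 31 ergosterol genes, only SUT1 was called, a regulator of sterol uptake at 9.60 and 9.53 in WT and 18.2 and 16.5 in K655/657R (0.79, adjusted p = 0.00398).

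TIP1 and TIR3 encode cell wall mannoproteins that are known to be induced by cold and by lack of oxygen. TIP1 had 392 and 406 scaled TPM in WT and 811 and 850 in K655/657R (1.05, adjusted p = 6.04e-05). TIR3 had 88.2 and 95.3 against 142 and 144 (0.64, adjusted p = 3.94e-04), which fell just under the fold threshold without WT replicate 1 (0.58). TIP1 differed from the genes above in K655/657Q, where it averaged 983 (K655/657R minus K655/657Q -0.24, adjusted p = 0.078). Of 51 cell wall genes, 3 rose (TIP1, TIR3 and SPI1) and 1 fell (CWP1), and the median was -0.01.

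A list of genes induced by low oxygen or low heme was written after these values were seen, and it is described here without a test. Of its 23 tested members 20 were higher in K655/657R and 3 were lower, 6 were called up (HEM13, OLE1, TIP1, SUT1, MGA2 and TIR3), and 12 passed the adjusted p alone, all higher. Its median was 0.37. Members between the thresholds included ANB1, the hypoxic copy of translation factor eIF5A (0.56, adjusted p = 0.041), the sterol regulator UPC2 (0.47, adjusted p = 0.00169) and the metal transporter FET4 (0.45, adjusted p = 0.0337). ROX1 itself had 17.8 and 14.2 against 15.1 and 12.7 (-0.19, adjusted p = 0.39). HAP1, the heme-dependent activator, was at 0.12 (adjusted p = 0.33). The 12 tested seripauperin genes, a subtelomeric family also tied to low oxygen, had no call.

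**Figure D2:**
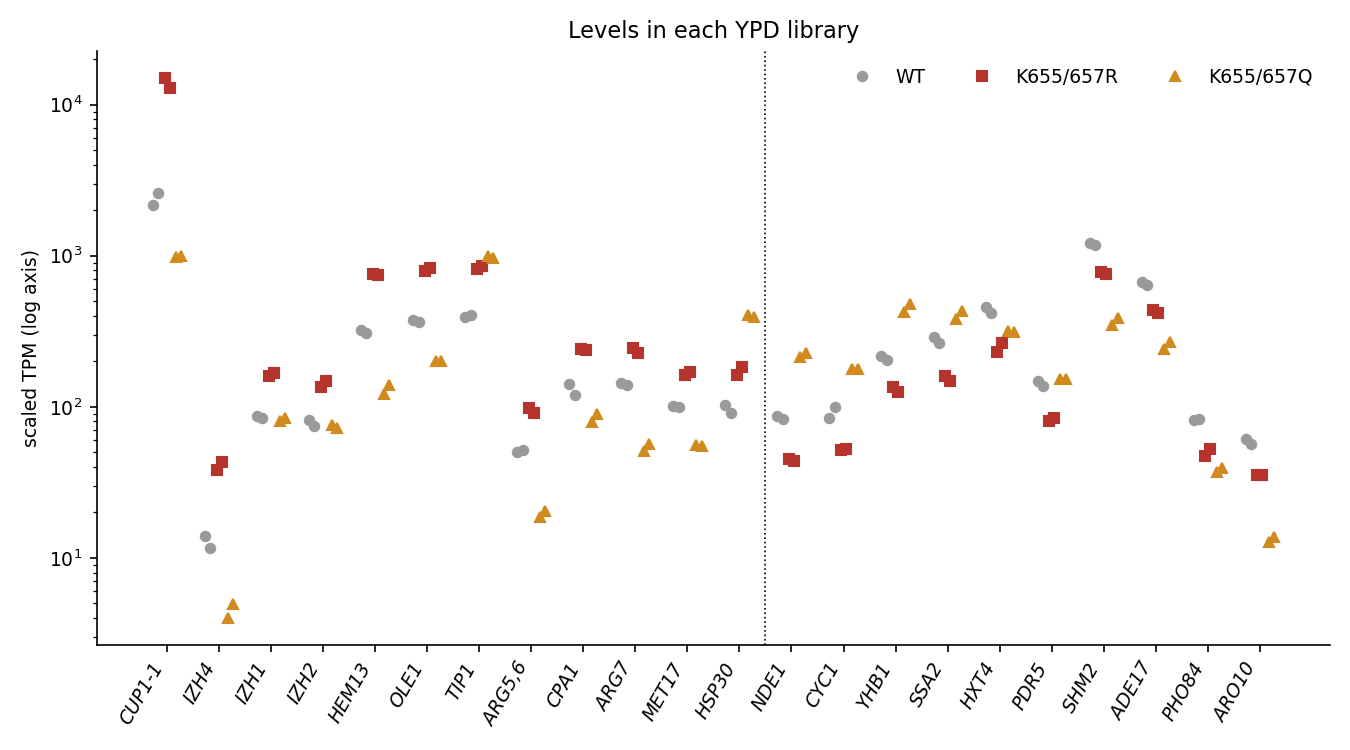
Scaled TPM (log axis) of 12 genes called higher and 10 called lower in K655/657R, split by the dotted line, with 1 point per YPD library of WT, K655/657R and K655/657Q. In every gene shown, as in all called genes, both K655/657R libraries lie on one side of both WT libraries, while K655/657Q takes either side.

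A group of genes of arginine synthesis rose. Of 22 tested genes of arginine and polyamine metabolism 5 were called up and none down, 10 were higher and 4 lower by the adjusted p alone (calls included, here and below), and the median was 0.23. The called genes named here act in the pathway from glutamate and bicarbonate. ARG5,6, which makes 2 enzymes from 1 precursor, had 50.2 and 51.6 scaled TPM in WT and 97.4 and 91.0 in K655/657R (0.87, adjusted p = 2.53e-04). CPA1, of the arginine-specific carbamoyl phosphate synthetase, had 141 and 120 against 240 and 238 (0.88, adjusted p = 0.00172). ARG7 rose by 0.73 and ARG4, argininosuccinate lyase, by 0.62. Without K655/657R replicate 1 ARG4 was at 0.58, under the fold threshold.

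YOR302W encodes the arginine attenuator peptide ahead of CPA1, and it was listed at 868 and 790 in WT and at 1870 and 1859 in K655/657R (1.17, adjusted p = 0.00129), a call lost with all 24 libraries fitted (adjusted p = 0.19). It has a coding length of 78 bases, and it lies next to CPA1 in the same orientation, where reads could be split between the 2 features, so its level is uncertain. ARG1 (0.50), ARG8 (0.46), ORT1 (0.40) and ARG2 (0.37) passed the adjusted p alone, and ARG3 (0.31, adjusted p = 0.12) did not pass. The catabolic genes CAR1 (-0.38) and CAR2 (-0.36), arginase and ornithine transaminase, differed in the other direction, also by the adjusted p alone. In K655/657Q the synthesis genes were under WT, with means of 19.7 for ARG5,6, 72.6 for ARG4 and 54.0 for ARG7, and K655/657R exceeded it by 2.20, 2.49 and 2.11 on the log2 scale (adjusted p = 5.34e-10, 2.44e-11 and 9.2e-11).

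Sulfur amino acid genes showed smaller rises. Of 37 tested genes, 2 were called up, none was called down, and 11 were higher and none lower by the adjusted p alone (median 0.14). MET17, which joins sulfide to O-acetylhomoserine, had 101 and 100 scaled TPM in WT and 163 and 169 in K655/657R (0.72, adjusted p = 0.00145). MET28, a cofactor of the activator Met4, went from 7.76 and 6.15 to 13.7 and 14.6 (0.94, adjusted p = 0.00888). Its adjusted p reached 0.066 without WT replicate 2 and also without K655/657R replicate 2. The 9 members of the aromatic and histidine list that were higher by the adjusted p alone, such as ARO3 (0.52) and TRP3 (0.41), and 4 branched-chain genes, led by ILV3 (0.56), stayed under the fold threshold. The list medians were 0.21 and 0.18.

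GCN4, whose product activates these pathways and is controlled mostly at translation, was at 1349 and 1358 in WT and 1406 and 1426 in K655/657R (0.07, adjusted p = 0.62). TGACTC, searched on both strands in the 500 bases before the start codon, was present in 13.3% of 5433 promoters, in 15 of 57 called rises and in 6 of 31 called falls that had such a window. ARG4, ARG5,6, ARG7 and CPA1 were among the rises with a match. The falls with a match were ADE17, ADE2, BNA4, GCV2, HPT1 and SHM2. ATTGTTC was present in 12.1% of promoters, in 11 of the rises (HEM13, OLE1, TIP1 and TIR3 among them) and in 2 of the falls. TTTGCTG was present in 11.2%, in 8 rises, with CUP1-1 and CUP1-2 both counted, and in 2 falls. ACTCAACA was present in 1.42%, in 2 of the 57 rises (MGA2 and OLE1) and in 2 of the 31 falls (ARO10 and FKH1).

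NDE1 and CYC1, of the mitochondrial respiratory chain, fell. Of 44 nuclear genes for the chain and the ATP synthase 35 were lower, 2 fell by the call, 11 were lower by the adjusted p alone and none was higher by it, and the median was -0.15. NDE1, the external NADH dehydrogenase, had 86.7 and 82.8 scaled TPM in WT and 45.2 and 43.6 in K655/657R (-0.92, adjusted p = 3.51e-05). CYC1, iso-1-cytochrome c, had 83.7 and 99.0 against 52.1 and 52.6 (-0.79, adjusted p = 3.5e-05). Both were higher in K655/657Q than in WT, at means of 220 and 178. The cytochrome bc1 genes CYT1 (-0.51) and COR1 (-0.49) passed the adjusted p alone. Not all members were lower, as CYC7 was at 0.36 (adjusted p = 0.15) and COX5B at 0.24 (adjusted p = 0.21). Of 8 listed protein genes of the mitochondrial genome 2 were tested in this poly(A) RNA, and both were higher without passing the test, with a median of 0.53. Genes of that genome outside the list, such as AI2, AI4 and AI5_BETA, were also tested and did not pass. The TCA cycle list, with 21 of 25 genes lower and a median of -0.14, had no call. Lists of other functions without a call were lower too, with 28 of 35 proteasome genes and 49 of 61 translation genes (both medians -0.12). The autophagy and vacuolar list went the other way, with 26 of 31 genes higher (median 0.12). The share of lower genes among all tested genes was not counted, and their median was 0.00.

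MAM33, PET9 and YHB1 also fell. MAM33, an acidic matrix protein, had 24 and 22.8 against 12.6 and 12.8 (-0.83, adjusted p = 6.47e-06). PET9, the major ADP/ATP carrier, had 331 and 325 against 205 and 216 (-0.64, adjusted p = 2.53e-04), and was named after its values were seen. YHB1, the flavohemoglobin that removes nitric oxide, had 215 and 204 against 136 and 125 (-0.68, adjusted p = 6.99e-04). In each of these genes the WT libraries were the higher ones. Of 75 mitochondrial ribosomal protein genes 65 were lower, MNP1 was the only call (-0.73, adjusted p = 2.52e-04), 17 were lower by the adjusted p alone, and the median was -0.17. YGL069C, its neighbour by systematic name, was called with it at -0.59 but lost the call without WT replicate 1 (-0.50) and without either K655/657R replicate (adjusted p = 0.13 and 0.11), and MNP1 lost its own with all 24 libraries fitted (adjusted p = 0.10).

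The Hsp70 chaperones SSA1 and SSA2 fell. SSA2 had 288 and 266 scaled TPM in WT and 160 and 149 in K655/657R (-0.84, adjusted p = 1.6e-04), with a mean of 406 in K655/657Q. SSA1 had 258 and 228 against 160 and 155 (-0.62, adjusted p = 0.00944), and its adjusted p rose to 0.10 without WT replicate 1, to 0.0505 without K655/657R replicate 1 and to 0.066 without K655/657R replicate 2. The 2 genes are close paralogs, so reads may be split between them unevenly. Of 31 chaperone genes 22 were lower, and the median was -0.12, as in the proteasome and translation lists. By the adjusted p alone 9 were lower, among them HSC82 (-0.56), YDJ1 (-0.53) and HSP60 (-0.51), and 1 was higher. HSF1 was at 0.20 (adjusted p = 0.096). The heat shock element stood in 1.44% of promoters, in 3 of the 31 falls (SSA1, SSA2 and YGR146C-A) and in none of the rises.

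The general stress list was mixed. Of its 42 tested genes 4 rose and none fell, while 27 were higher and 15 lower (median 0.14). By the adjusted p alone 6 were higher and 1 was lower, GRE2 (-0.48, adjusted p = 0.0074). Of 20 trehalose and glycogen genes 16 were lower and 4 higher, without a call (median -0.09). YRO2, a plasma membrane protein, had 172 and 158 against 272 and 288 (0.76, adjusted p = 2.67e-04), and SPI1, a cell wall protein, had 156 and 158 against 236 and 255 (0.64, adjusted p = 2.28e-04). HSP30, which restrains the plasma membrane proton pump, had 103 and 91.1 against 163 and 183 (0.83, adjusted p = 0.0385), and SPG4 had 19.8 and 27.5 against 46.1 and 47.1 (0.97, adjusted p = 0.0101). The calls of both latter genes were less stable. Without 1 library the adjusted p of HSP30 ranged from 0.11 to 0.19, whichever library was left out. That of SPG4 was 0.057 without K655/657R replicate 1, 0.14 without WT replicate 1 and 0.066 without K655/657R replicate 2, and SPI1 was at 0.58, under the fold threshold, without K655/657R replicate 2. The oxidative stress list of 34 genes and the list of 31 autophagy and vacuolar genes had no call.

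**Figure D3:**
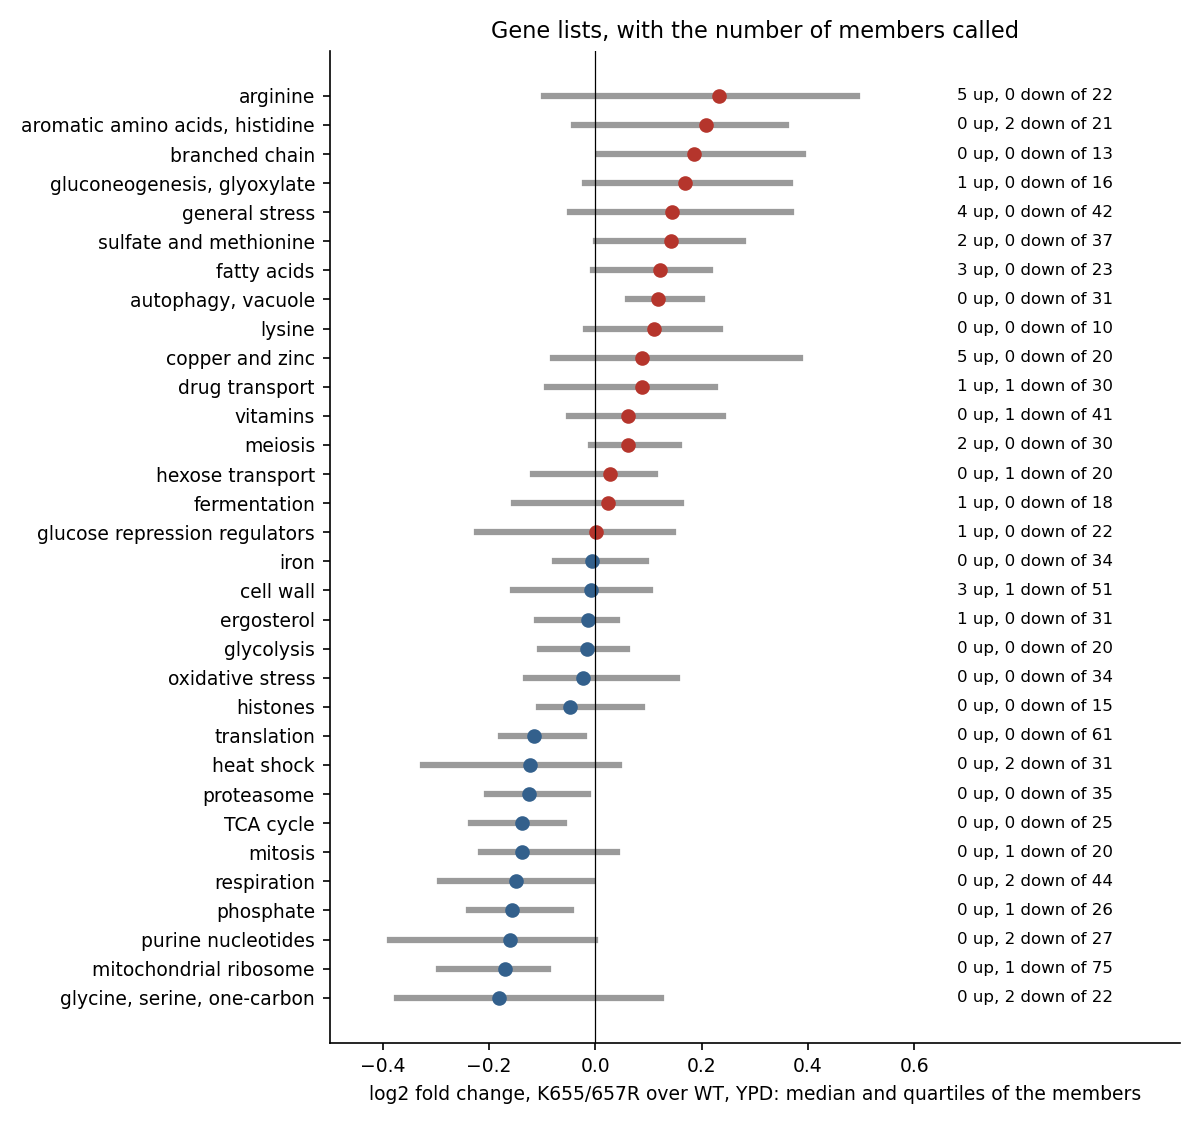
Median (point) and quartiles (bar) of the log2 fold change of K655/657R over WT in YPD over the members of each gene list, for lists of at least 10 tested members that hold a called gene and for 10 others, without the low-oxygen list, with the number of members called at the right. Medians run from -0.18 for glycine, serine and one-carbon genes to 0.23 for arginine genes.

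Single genes of one-carbon and purine metabolism fell. SHM2, the cytosolic serine hydroxymethyltransferase, had 1216 and 1174 scaled TPM in WT and 776 and 758 in K655/657R (-0.64, adjusted p = 0.00106). GCV2, a subunit of the glycine cleavage complex, had 118 and 111 against 74.7 and 71.3 (-0.64, adjusted p = 0.00106). GCV1 (-0.52) and MTD1 (-0.55), of the same routes, passed the adjusted p alone. Of 22 genes on the list 2 fell and none rose, 8 were lower and 4 higher by the adjusted p alone, and the median was -0.18. K655/657Q was lower still, at a mean of 368 for SHM2 and 30.7 for GCV2, and K655/657R exceeded it by 1.06 and 1.23 (adjusted p = 3.32e-07 and 6.91e-08).

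Of 27 purine genes 2 fell and none rose, and the median was -0.16. ADE17, which carries out the last steps of IMP synthesis, had 671 and 639 against 435 and 420 (-0.61, adjusted p = 0.00158), and HPT1, the hypoxanthine and guanine salvage enzyme, had 175 and 170 against 110 and 114 (-0.62, adjusted p = 2.13e-04). Without WT replicate 1 ADE17 was at -0.58, under the fold threshold. ADE4, ADE6, ADE1, ADE13 and ADE5,7 were lower by the adjusted p alone, between -0.34 and -0.52. ADE2 had 120 and 113 against 78.7 and 71.8 (-0.62, adjusted p = 7.49e-04). The labels place the ade2-1 allele at this gene, while the strain list of the study gives no ade2 allele for the MYC-tagged LPY strains. ADE2 was under the fold threshold without WT replicate 1 (-0.58) and without K655/657R replicate 2 (-0.56). IMD2, IMP dehydrogenase of the guanine branch, was higher by the adjusted p alone (0.51).

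Several transporters and surface proteins fell singly. HXT4, a hexose transporter of high affinity, had 457 and 420 against 231 and 265 (-0.82, adjusted p = 0.00252), and it was the only one of 20 tested hexose transport genes to be called, with HXT3 at -0.49 and HXT7 at -0.47. PDR5, the multidrug ABC transporter, had 148 and 136 against 80.4 and 84.7 (-0.78, adjusted p = 1.07e-04). PHO84, the high-affinity phosphate transporter, had 81.8 and 83.6 against 47.5 and 52.2 (-0.72, adjusted p = 6.82e-04), and 20 of 26 genes of the phosphate response were lower, with a median of -0.16. CWP1, a cell wall mannoprotein, had 158 and 150 against 94.2 and 99.3 (-0.67, adjusted p = 0.0409). Its adjusted p was between 0.10 and 0.20 whichever library was left out.

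ARO9 and ARO10, an aminotransferase and a decarboxylase of aromatic amino acid breakdown, were the 2 falls on the aromatic list, which held 9 members higher by the adjusted p alone. ARO9 had 43.6 and 42.8 against 25.5 and 25.4 (-0.74, adjusted p = 6.82e-04), and ARO10 had 61.2 and 57.0 against 35.3 and 35.5 (-0.72, adjusted p = 2.28e-04). BNA4, of the kynurenine route from tryptophan to NAD, had 22.2 and 18.3 against 12.3 and 12.9 (-0.64, adjusted p = 0.00135), with -0.51 and no call without WT replicate 1. CCGCGG, a site of Pdr1 and Pdr3, stood in 3.28% of promoters, in 4 of the 31 falls (PDR5, ARO9, ARO10 and YGR146C-A) and in 2 of the rises.

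Rises outside the groups above were scattered. TPO2, a polyamine exporter, had 53.5 and 49.5 against 84.7 and 93.4 (0.78, adjusted p = 0.00145), NRG2, a repressor of glucose-repressed genes, 18.9 and 21.7 against 36.4 and 35.0 (0.79, adjusted p = 1.28e-04), and CIT2, the peroxisomal citrate synthase, 134 and 131 against 210 and 200 (0.62, adjusted p = 0.00632). CIT2 had an adjusted p of 0.054 without K655/657R replicate 1. ADH2, SPO21 and SPS100 were called at levels under 12 scaled TPM, and ADH2 lost its call whichever library was left out (adjusted p from 0.11 to 0.18). SPO21 lost it under 9 of 18 alternatives, among them without WT replicate 2 (0.58), without K655/657R replicate 1 (0.55), with TPM as deposited (0.51), with ACT1 scaling (0.51) and with a pseudocount of 5 (0.29). SPS100 lost it without WT replicate 1 (0.54). FKH1, a forkhead factor of the cell cycle, was the only mitotic gene called, at 5.33 and 5.42 against 3.005 and 3.19 (-0.64), and lost its call with a pseudocount of 5 (-0.36) and with ACT1 scaling (-0.57).

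Several large changes belonged to genes with little annotation. YDR274C had 12.3 and 12.8 scaled TPM in WT and 40.5 and 40.5 in K655/657R (1.61, adjusted p = 6.47e-06), and 3.90 on average in K655/657Q. YPR145C-A had 58.1 and 66.4 against 158 and 149 (1.29, adjusted p = 0.00122). Among falls, SFG1, a factor linked to filamentous growth, had 14.1 and 13.7 against 8.51 and 6.36 (-0.83, adjusted p = 0.0101), with an adjusted p of 0.082 without WT replicate 1 and 0.12 without K655/657R replicate 2. YLR120W-A had 38.7 and 45.1 against 23.9 and 22.3 (-0.83), and YGR146C-A had 13.9 and 11.95 against 8.98 and 6.19 (-0.71, adjusted p = 0.0346), whose adjusted p was 0.22 without WT replicate 1, 0.064 without WT replicate 2 and 0.28 without K655/657R replicate 2. YER068C-A, beside ARG5,6 by its name, rose by 0.90, with an adjusted p of 0.071 without K655/657R replicate 1 and 0.062 without WT replicate 2, and of 0.73 with all 24 libraries fitted. Of the called genes 22 rises and 9 falls had no gene name, and 12 rises and 3 falls were not in the reference, where overlap with a named gene could not be checked.

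Chromosome medians of the log2 fold change ran from -0.04 to 0.05 over the 16 nuclear chromosomes. Of 88 called genes with a position, 8 lay within 30000 bases of a chromosome end, where 6.53% of tested genes lie. In 5 pairs of adjacent genes both were called, always in 1 direction: NRG2 with TIP1, HTL1 with HSP30, YJR154W with AAD10, YOR302W with CPA1, and YOR314W with SFG1. HTL1 lost its call without WT replicate 1 (0.50), and YOR314W lost it without WT replicate 1 (-0.48) and without either K655/657R replicate (adjusted p = 0.13 and 0.073). Called rises had a median coding length of 951 bases and called falls of 1041, against 1197 over all tested genes with a length. Across 5794 genes the Spearman correlation of log2 fold change and coding length was -0.08, a description over genes that share the same 4 libraries.

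The same strains were compared in raffinose and 15 min after glucose was added, in libraries not shared with YPD. In raffinose 11 genes outside RP and RiBi were called (0.183%), and none of them was among the 103 YPD calls. Of the 69 YPD rises 32 had the same sign in raffinose and their median was -0.03, and of the 34 falls 14 had the same sign, with a median of 0.04. At 15 min limma called no gene, with 998 at an unadjusted p under 0.05. There, 32 of the rises and 26 of the falls kept their sign, with medians of -0.06 and -0.08. Only YPR145C-A among the rises was also at least 1.5-fold higher in raffinose (0.61), without passing the test. At 15 min 2 of the rises were at least 1.5-fold higher, with a highest value of 0.69 and no call. None of the falls was at least 1.5-fold lower there.

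**Figure D4:**
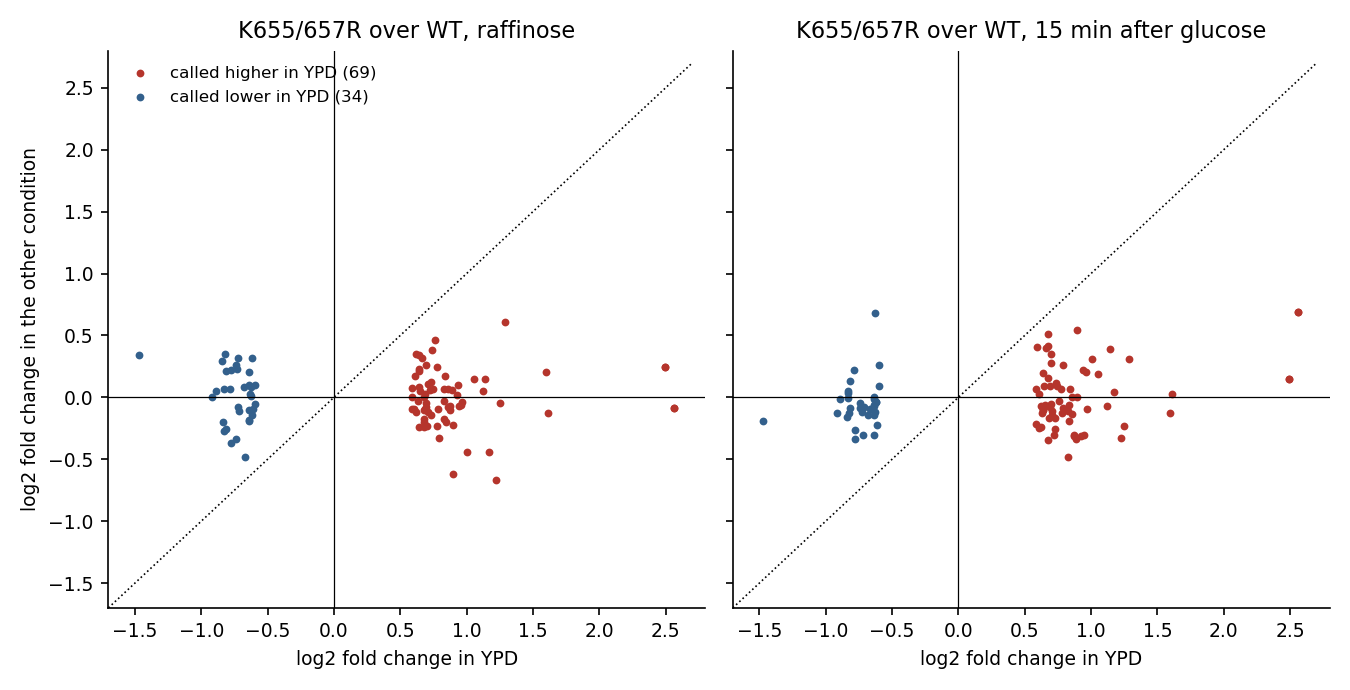
Log2 fold change of K655/657R over WT in YPD against the same quantity in raffinose (left) and 15 min after glucose (right), 1 point per gene called in YPD, with a dotted line where both are equal. Points spread around 0 on the vertical axes, with medians of -0.03 and -0.06 for the rises and 0.04 and -0.08 for the falls.

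For the leading genes the strains overlapped in raffinose. CUP1-1 was at 1243 and 1372 scaled TPM in WT and 1057 and 1428 in K655/657R there. At 15 min it was at 897 and 645 against 1163 and 1300, with both K655/657R libraries the higher ones and no call. HEM13 was at 94.8 and 84.6 against 85.8 and 88.2 in raffinose. OLE1 was at 1343 and 1279 against 1467 and 1254, well above its YPD levels in both strains. NDE1 was at 362 and 338 against 369 and 333, also above its YPD level. ARG5,6 had 38.1 and 32.2 against 37.1 and 28.6. SSA2 was the one of these 6 without overlap in raffinose, with 135 and 122 in WT and 143 and 172 in K655/657R, opposite to YPD.

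**Figure D5:**
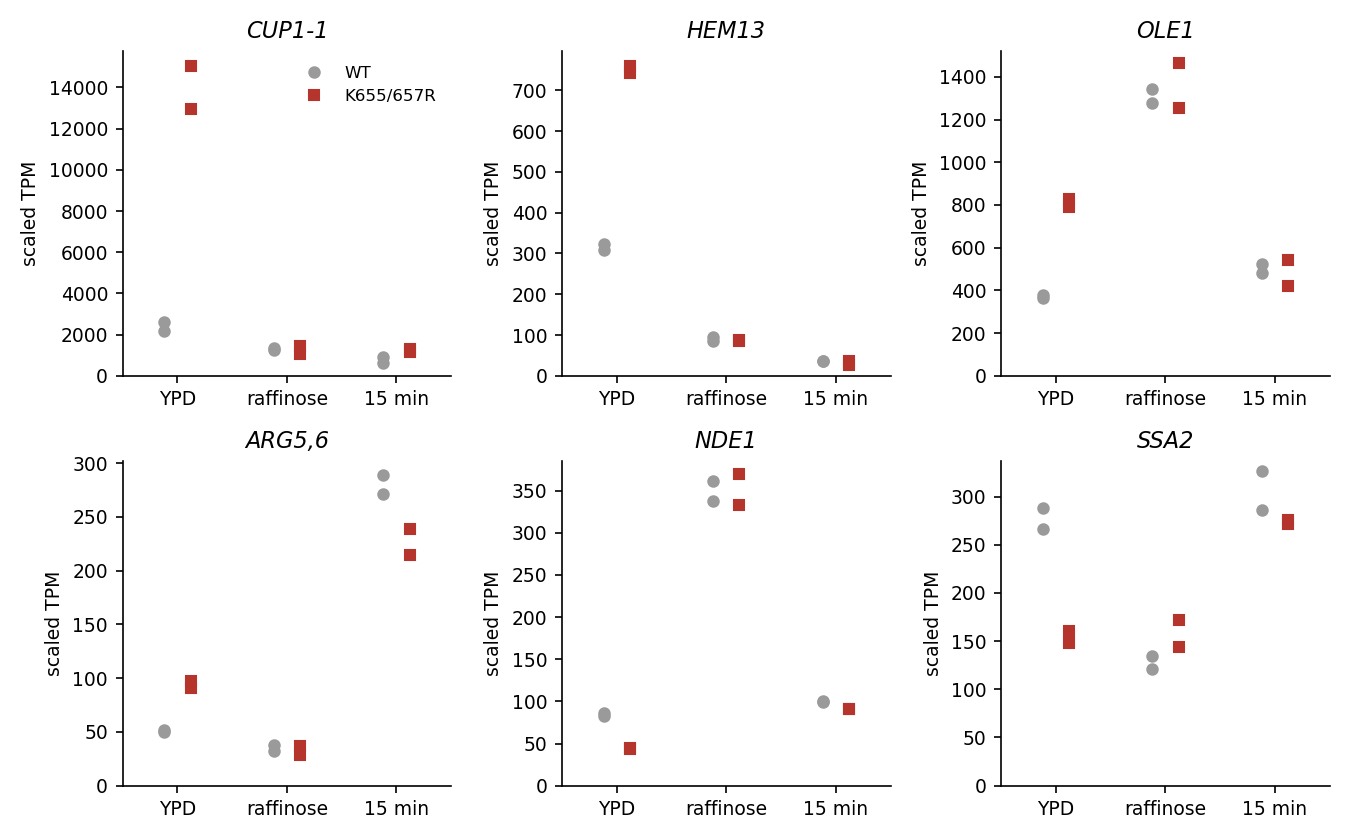
Scaled TPM of 6 genes in WT (grey) and K655/657R (red), 2 libraries each, in YPD, in raffinose and 15 min after glucose. In YPD the strains are apart in all 6 panels, and in raffinose they overlap in all but SSA2.

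The change of the K655/657R effect between media was fitted as an interaction. It was called for 149 of the 5995 genes (2.49%) and for 58 of the 103 YPD calls. Those calls were chosen on YPD values that enter the interaction, so the latter count is a description. The difference was -2.65 for CUP1-1 (adjusted p = 4e-04), -1.29 for HEM13 (adjusted p = 0.00368) and -1.07 for OLE1 (adjusted p = 0.00294). It was 1.13 for SSA2 (adjusted p = 5.49e-04), 1.17 for HXT4 (adjusted p = 0.00538) and 0.92 for NDE1 (adjusted p = 0.00131). For ARG5,6 it was -0.98 (adjusted p = 0.00348).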

How the data were processed

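Poly(A) RNA from total RNA was sequenced with a directional kit. Per the labels and methods, reads were trimmed with fastp 0.23.2 and quantified with kallisto 0.48.0 on R64, and the deposited TPM values, 1 per transcript and library, were used here. TPM total 1000000 per library and keep no read depth, so counting error is unknown. The study's own differential expression needed counts, which were not used here.

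TPM were divided by median-of-ratios size factors (0.802 to 0.854 in the 4 libraries, 0.802 to 1.14 in all), and log2(value + 1) was modelled where TPM averaged 1 or more (6357 of 6612 transcripts) in limma 3.58.1 (lmFit, eBayes with trend; R 4.3.3) as 1 mean per strain and condition. One 30 min library (K655/657R, replicate 2) did not enter, following the study, which left 23 libraries and 11 residual degrees of freedom. Tables, windows and plots used Python 3.11.15, pandas 2.3.3, numpy 2.4.6, scipy 1.17.1 and matplotlib 3.10.9. An exact permutation test of 2 against 2 libraries cannot go below p = 0.333.

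Members, gene lists and tests were chosen with earlier results of these data known. Outside 137 RP genes and 225 RiBi genes, the text names, for each direction, the 15 calls of greatest size that averaged 10 scaled TPM or more and showed no overlap of strains, every called gene on 1 of 58 lists, control genes and defining members of lists. Other names were chosen after their values were seen. Some genes are not reported here. Positions come from the R64 reference of RefSeq, which holds 5929 of the 6612 transcripts, and gave 189 symbols. In data simulated for the same 23 libraries with normal noise, only genes above 10 scaled TPM in WT in YPD were changed. Of these, 118 of 120 changed by 1 on the log2 scale and 80 of 80 changed by 1.5 were called, as were 4 unchanged genes. Most real calls were smaller than 1 in size, and 75 of the 103 averaged 10 scaled TPM or more. The share found among smaller changes or lower genes was not simulated.

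Alternatives changed the scaling (ACT1, upper quartile, TPM as deposited), the pseudocount, the filter, the libraries fitted, the moderation of the spread, the fold threshold and a trend with coding length, and left out each library in turn.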

Additional observations from a re-analysis of the deposited data

Results flagged for a closer look

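The effect of K655/657R was called different between raffinose and YPD, by the interaction test of limma, for 58 of the 103 YPD calls. Over all 5995 tested genes outside RP and RiBi the count was 149 (2.49%). The 103 genes were chosen on YPD values that enter the test, so their count and signs are a description. Among the largest YPD rises the effect was lower in raffinose, and the difference (raffinose minus YPD, log2 scale) is given for each. It was -2.65 for CUP1-1 and CUP1-2, which share 1 measurement, -2.25 for YHR052W-A and YHR054W-A beside them, and -1.74 for YDR274C. It was -1.39 for IZH4, -1.29 for HEM13, -1.61 for YOR302W and -1.07 for OLE1. TIP1 and IZH1 both came to -0.91, and YER068C-A to -1.51. Among the largest falls the difference was positive, at 1.17 for HXT4, 1.13 for SSA2, 1.04 for ARO10, 1.00 for ARO9 and 0.96 for MNP1. It was 0.92 for NDE1, 0.90 for MAM33, 0.85 for CYC1, 0.76 for YHB1 and 0.65 for PHO84.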

How the results depend on the processing

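Depth is unknown, and every group holds 2 libraries. Over the 19 refits, 36 of 58 named genes stayed called and none reversed. Calls in YPD numbered 67 with a pseudocount of 5 (45 up, 22 down), 641 with no fold threshold (318 up, 323 down) and 15 at 2-fold (14 up, 1 down). Falls numbered 21 with all 24 libraries. Leaving out 1 library gave 78 to 133 calls, 57 to 88 up and 21 to 45 down (21 without WT replicate 1). Of the 103 calls, 70 to 84 were shared with these refits. Calls in raffinose, 11, became 6 with ACT1 scaling, with TPM as deposited and with a pseudocount of 5, 3 with a pseudocount of 0.1, 4 without the filter, 2 with WT and K655/657R libraries only, 1 with all 24, 45 with no fold threshold and 0 at 2-fold (limma, 1008 at an unadjusted p under 0.05). No list median of at least 0.1 changed sign. Alternatives restricted to genes in the reference (88 calls) and the low-oxygen list were added after seeing the data. Same-numbered replicates of the strains had correlated deviations of -0.04 in YPD, 0.14 in raffinose and 0.05 at 15 min, and no source ties the numbers to a shared day or culture, so they were not taken as pairs. With a replicate block 102 genes were called in YPD (69 up, 33 down), 99 of them shared, and 3 in raffinose, and the call of YGR146C-A was lost.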
